A study of Mus musculus with 6 samples.

Results

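PHF2, PHF8 and KDM7A make up the KDM7 family of histone demethylases, and ARID5B is a DNA-binding partner of PHF2. The 4 genes, *Phf2*, *Phf8*, *Kdm7a* and *Arid5b*, were chosen by symbol as the family and this partner, from the 55401 genes of the count table. The rule uses symbols and no level of any library. All 4 were among the 17310 genes that passed the filter on low counts and were tested.

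KDM7 proteins hold a PHD finger, which binds histone H3 trimethylated at lysine 4, and a JmjC domain, an oxygenase fold that removes methyl groups with iron and 2-oxoglutarate. PHF8 acts on dimethylated H3 lysine 9 and on monomethylated H4 lysine 20, and KDM7A on dimethylated H3 lysines 9 and 27. PHF2 is known to act on dimethylated H3 lysine 9 after protein kinase A phosphorylates it, in a complex with ARID5B, and has known roles in fat cells and cartilage.

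RNA sequencing covered 6 libraries of C2C12 cells, a mouse myoblast line, with polyA RNA taken 2 d after the change to medium with 2% horse serum. The 3 control libraries carry the genotype label wild type. By the methods they are mock cells that received the ZsGreen plasmid without a *Phf2* guide RNA. The 3 *Phf2* KO libraries came from cells given a pool of guide plasmids against *Phf2* with the same reporter. ZsGreen-positive cells were sorted and expanded as a pool in place of single clones, so the KO cells can carry a mixture of alleles. The number n counts wells of a single experiment. P-values here measure only the spread between these libraries, and differences between the sorted pools cannot be told apart from the loss of *Phf2*.

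The estimated counts summed to between 52526109 and 67502788 per library. They were made from read depth with a length of 75 bases, shorter than the reads, so they exceed the number of reads. All 7 skeletal muscle markers examined were above 1 CPM (counts scaled to library size) on average. Their summed level was 6645 to 7782 CPM in control cells and 5368 to 5890 CPM in *Phf2* KO cells, and 4 of the 7 (*Myog*, *Myh3*, *Des* and *Ckm*) fell by the test used below. Of the markers of other cell types, 1 of 4 leukocyte genes (*Cd68*) was above 1 CPM and *Adgre1* was at 0 in all libraries. None of the 4 endothelial, 4 epithelial and 4 neural markers reached 1 CPM, with *Tie1*, *Epcam* and *Krt18* at 0.

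Coordinates are those of mm10 (GRCm38) and transcripts those of GENCODE M21. *Phf2* (ENSMUSG00000038025.8) lies on the minus strand at chr13:48801750-48871119, with 1 annotated transcript of 22 exons and 1096 codons. *Phf8* (ENSMUSG00000041229.15) lies on the plus strand at chrX:151520672-151633859, with 11 transcripts and a longest reading frame of 1023 codons. *Kdm7a* (ENSMUSG00000042599.8) lies on the minus strand at chr6:39136623-39206789, with 2 transcripts and 940 codons. *Arid5b* (ENSMUSG00000019947.10) lies on the minus strand at chr10:68092520-68278740, with 4 transcripts and 1188 codons.

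The coding sequence around the iron-binding site is shown because it holds residues that all 3 family members share and a residue in which PHF2 differs from both paralogs. JmjC enzymes bind iron through a histidine, any residue and an aspartate, and through a further histidine downstream. The histidine-isoleucine-aspartate codons, in capitals, stood at residues 249 to 251 of PHF2, 247 to 249 of PHF8 and 282 to 284 of KDM7A.
Phf2: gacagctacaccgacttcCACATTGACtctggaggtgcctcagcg
Phf8: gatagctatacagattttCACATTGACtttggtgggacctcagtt
Kdm7a: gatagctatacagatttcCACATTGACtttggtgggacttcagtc

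These stretches lie in exon 6 of *Phf2* at chr13:48822967-48823011, in exon 7 of *Phf8* at chrX:151554258-151554302 and in exon 6 of *Kdm7a* at chr6:39170142-39170186. The 9 bases in capitals were the same in all 3 genes. The further iron-binding position is shown next, with its codon in capitals, in stretches that cross an exon junction.
Phf2: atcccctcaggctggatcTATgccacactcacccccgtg
Phf8: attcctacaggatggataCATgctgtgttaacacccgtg
Kdm7a: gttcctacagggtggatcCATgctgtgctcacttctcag

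The codon encodes tyrosine at residue 321 of PHF2, histidine at residue 319 of PHF8 and histidine at residue 354 of KDM7A. It lies in exon 8 at chr13:48820603-48820605, in exon 9 at chrX:151565380-151565382 and in exon 8 at chr6:39166744-39166746. It was the only aligned column in which PHF2 had tyrosine and both paralogs histidine. The cysteine and histidine spacing of a PHD finger was found at residues 8 to 53 of PHF2, 8 to 53 of PHF8 and 40 to 85 of KDM7A, and not in ARID5B.

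Of the aligned residues, 53.8% were identical between PHF2 and PHF8, 46.6% between PHF2 and KDM7A and 48.5% between PHF8 and KDM7A. ARID5B, a partner and not a family member, shared 21.4% to 22.6% with the KDM7 proteins. No share for unrelated proteins was taken, so this value does not show relatedness. The longest run of bases shared between transcripts of any pair of KDM7 genes was 33, and the reads were 150 bases long. The pseudogene *Phf8-ps* had a count of 0 in all 6 libraries.

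*Phf2*, the targeted gene, was measured first as a check of the labels. It stood at 102.4, 95.5 and 104.6 CPM in control replicates 1, 2 and 3 and at 41.1, 37.6 and 38.6 CPM in *Phf2* KO replicates 1, 2 and 3. Every KO library was below every control library. The mean was 100.8 ± 4.73 CPM in control and 39.1 ± 1.78 CPM in *Phf2* KO cells (SD, n = 3).

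The log2 fold change of *Phf2* was -1.37 ± 0.055 (SE; adjusted p = 8.32e-09, edgeR quasi-likelihood test with Benjamini-Hochberg adjustment). Its 95% confidence interval puts the KO level between 35.7% and 42.1% of control, so transcripts of *Phf2* remained in the KO libraries. The paper reports a large fall of PHF2 protein in the KO myoblasts, an unlike measure taken before differentiation. The RNA of a pool does not show how many cells carried an edited allele, and fewer cells with the transcript cannot be told apart from less transcript per cell. A log2 fold change at least as large in size as that of the *Phf2* RNA was seen in 257 genes. Among the 9618 genes that averaged 10 CPM or more it was seen in 6, *Phf2* included.

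On the TPM scale of the tables of single libraries, which takes transcript length and library size into account, the *Phf2* level was 39.6 ± 2.09 in control and 15.5 ± 0.588 in *Phf2* KO cells, 39.1% of control. The TPM of the groups did not overlap. The mean read depth per base was 79.7, 75.9 and 83.2 in control and 34.5, 27.0 and 35.7 in KO libraries. Depth is not scaled by library size and the counts were made from it, so it is no separate measure. KO replicate 2, with the lowest depth, also had the smallest library total, and KO replicate 3, with the highest depth of the KO libraries, had the largest. Among the genes tested, ranked by TPM, *Phf2* stood at percentiles 75.5 to 77.7 in control and 54.5 to 56.3 in KO libraries.

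*Phf8*, the paralog with the highest identity to *Phf2*, showed no detected change. It stood at 29.9, 31.5 and 29.8 CPM in control and at 29.6, 29.2 and 31.6 CPM in *Phf2* KO replicates 1, 2 and 3. The groups overlapped. The means were 30.4 ± 0.957 and 30.2 ± 1.27 CPM (SD, n = 3).

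The log2 fold change of *Phf8* was -0.01 ± 0.067 (SE; adjusted p = 0.956, edgeR). Its 95% confidence interval runs from -0.16 to 0.13, a KO level of 89.8% to 109.6% of control. On the TPM scale it was 10.8, 10.3 and 10.4 in control and 11.5, 9.74 and 12.4 in KO libraries, which also overlapped. *Phf8* is on the X chromosome and had the most annotated transcripts of the 4 genes.

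*Kdm7a* stood at 51.6, 49.4 and 51.5 CPM in control and at 51.4, 58.1 and 57.3 CPM in *Phf2* KO replicates 1, 2 and 3. KO replicates 2 and 3 were above all controls, while KO replicate 1 lay within them. The means were 50.8 ± 1.26 and 55.6 ± 3.64 CPM (SD, n = 3). The log2 fold change was 0.13 ± 0.059 (SE) with a raw p of 0.0471 and an adjusted p of 0.249 by edgeR. It did not pass the threshold over all genes. Among the 17310 genes tested, *Kdm7a* ranked 3270 by p, and the size of its log2 fold change was at percentile 49. The 95% confidence interval allows a KO level of 100.1% to 119.5% of control.

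*Arid5b*, the DNA-binding partner, stood at 109.0, 104.4 and 109.7 CPM in control and at 112.8, 114.9 and 120.5 CPM in *Phf2* KO replicates 1, 2 and 3. Every KO library was above every control library. The means were 107.7 ± 2.85 and 116.1 ± 4.0 CPM (SD, n = 3). The log2 fold change was 0.11 ± 0.044 (SE), with a raw p of 0.0295 and an adjusted p of 0.194 by edgeR. Among the 17310 genes tested, *Arid5b* ranked 2628 by p, and the size of its log2 fold change was at percentile 42.7. It did not pass the threshold, and its 95% confidence interval allows a KO level of 100.9% to 115.2% of control.

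On the TPM scale the *Arid5b* groups overlapped, at 33.3, 27.6 and 36.5 in control and 33.0, 34.7 and 38.7 in KO libraries. Control replicate 2 was the low one on this scale. Its ratio of CPM to TPM was 3.79, against 3.01 to 3.41 in the other 5 libraries.

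Of the 4 genes, 1 passed the threshold of an adjusted p under 0.05. It was *Phf2*, the targeted gene, and none of the others passed. Of all genes tested 6.48% passed, 1122 genes. That count fell to 468 without control replicate 2, 577 without KO replicate 2 and 613 without KO replicate 3, and limma on TPM gave 127 and 153 with pseudocounts of 1 and 0.1. By direction, 3.26% of all genes were past the threshold and lower in KO cells, and 3.22% were past it and higher. The libraries of the groups did not overlap for 2 of the 4 genes, *Phf2* and *Arid5b*, and for 25.1% of all genes tested. Across 14 alternative settings, *Phf2* passed the threshold in 14, with a log2 fold change of -1.40 to -1.30. *Kdm7a* and *Arid5b* passed in 0 and kept a positive sign in all 14, at 0.10 to 0.18 and 0.08 to 0.13. *Phf8* passed in 0, and its sign was not fixed, at -0.05 to 0.08. The 14 settings refit the same libraries and are not independent, so a kept sign is no repeat of a result.

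**Figure D1:**
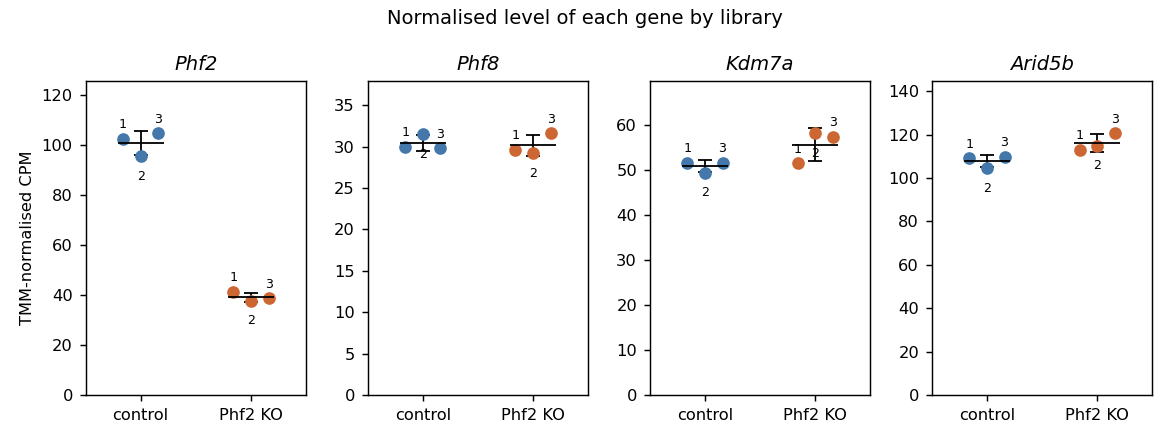
Normalised level in CPM (y axes from 0, one panel per gene) of *Phf2*, *Phf8*, *Kdm7a* and *Arid5b* in the 3 control and 3 *Phf2* KO libraries, with each point numbered by its replicate and the mean ± SD as bars. The KO libraries lie far below control for *Phf2* and just above it for *Arid5b*, and the groups overlap for *Phf8* and *Kdm7a*.

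**Figure D2:**
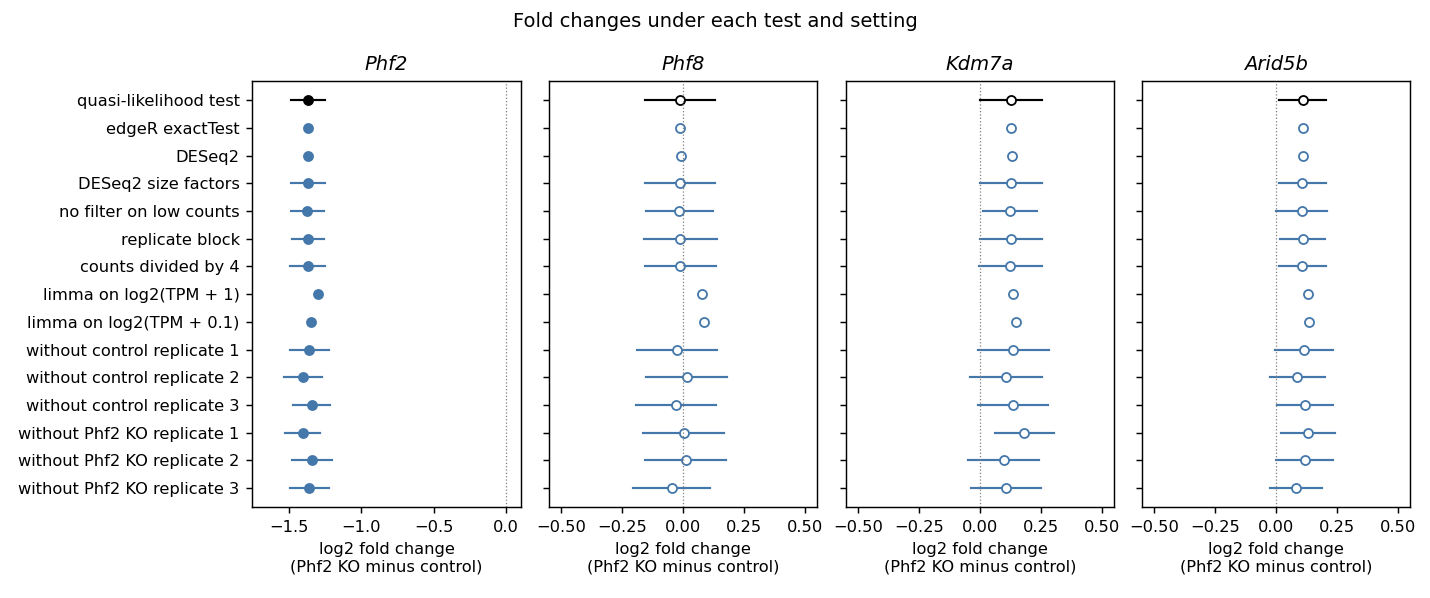
Log2 fold change, *Phf2* KO minus control (x axis), of the 4 genes under the reported fit and the 14 alternative settings (rows), with 95% confidence intervals where the fit gives them. Filled circles passed an adjusted p of 0.05 and open circles did not: all *Phf2* circles are filled and all circles of the other genes are open.

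Levels were compared between genes on the TPM scale. In control cells *Phf2* was the highest of the 4, with libraries at 37.3 to 41.4 TPM, followed by *Arid5b* at 27.6 to 36.5, *Kdm7a* at 11.1 to 11.8 and *Phf8* at 10.3 to 10.8. No neighbours in this order overlapped. The gap between *Kdm7a* and *Phf8* depended on the scale, since their mean read depths per base were 21.9 and 13.1 in the same control libraries. The counts and depths of *Phf8* imply a length of 10078 to 10099 bases, against 9318 bases of exons in GENCODE M21, so the authors' model of this gene may be another one, and its depth and share are less certain.

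In *Phf2* KO cells the order was *Arid5b*, *Phf2*, *Kdm7a* and *Phf8*, with means of 35.5 ± 2.88, 15.5 ± 0.588, 12.8 ± 1.12 and 11.2 ± 1.33 TPM (SD, n = 3). *Phf2* thus remained above both paralogs, at 14.8 to 16.0 TPM against at most 13.5 for *Kdm7a* and 12.4 for *Phf8*. The libraries of *Kdm7a* and *Phf8* overlapped.

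**Figure D3:**
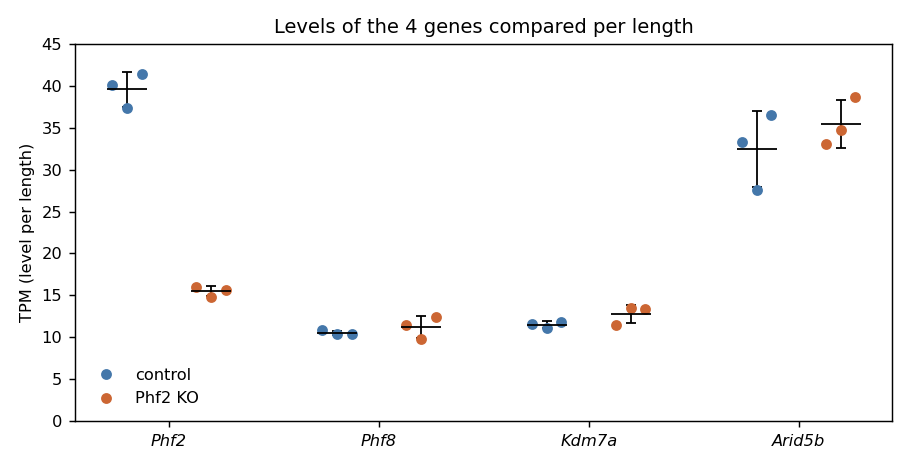
Level per length in TPM (y axis) of the 4 genes in each of the 6 libraries, with points coloured by group and the mean ± SD as bars. *Phf2* is the highest gene in control libraries and second to *Arid5b* in KO libraries, and *Kdm7a* and *Phf8* lie close together in both groups.

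The KDM7 transcripts were then summed. The sum of *Phf2*, *Phf8* and *Kdm7a* was 62.5, 58.7 and 63.6 TPM in control and 38.9, 38.0 and 41.4 TPM in *Phf2* KO libraries. Every KO library was below every control library, with means of 61.6 ± 2.58 and 39.4 ± 1.72 TPM (SD, n = 3). The sum holds the targeted gene, so its fall is no separate result.

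*Phf2* gave 64.3% ± 0.745 of this sum in control and 39.3% ± 1.61 in KO cells (SD, n = 3). *Kdm7a* gave 18.7% ± 0.169 and 32.4% ± 2.97, and *Phf8* gave 17.1% ± 0.663 and 28.3% ± 2.36. The shares of the paralogs in KO cells are thus shares of a smaller sum. Their own TPM means were 11.5 ± 0.401 and 12.8 ± 1.12 for *Kdm7a* and 10.5 ± 0.262 and 11.2 ± 1.33 for *Phf8*. With read depth per base in place of TPM, the shares of *Phf2*, *Kdm7a* and *Phf8* were 69.5%, 19.1% and 11.4% in control and 45.5%, 35.3% and 19.1% in KO cells.

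**Figure D4:**
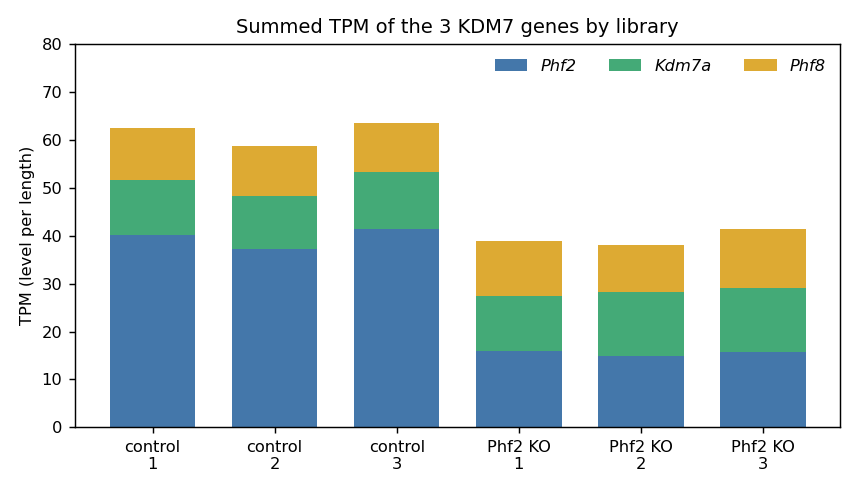
Stacked bars of TPM (y axis from 0) of *Phf2*, *Kdm7a* and *Phf8* in each of the 6 libraries. The bars reach 58.7 to 63.6 TPM in control and 38.0 to 41.4 TPM in KO libraries, and the difference lies in the *Phf2* segment.

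The tables also hold loci that StringTie assembled from the reads of each library, and these were set beside the reference gene. This comparison was chosen after the data were seen. The read depth of the assembled *Phf2* locus over that of the reference gene was 1.00, 0.931 and 0.994 in control and 0.746, 0.797 and 0.687 in *Phf2* KO libraries. Every KO library was below every control library, with means of 0.975 ± 0.0382 and 0.743 ± 0.0549 (SD, n = 3), a log2 difference of -0.39. An exact permutation test with 3 against 3 cannot go below p = 0.1, and no p is given.

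For this ratio, 212 of 6334 genes, 3.35%, had every KO library below every control library, and 177 genes had a difference at or below that of *Phf2*. The TPM of the assembled locus over that of the reference gene was 1.00 to 1.008 in control and 1.002 to 1.079 in KO libraries. The assembled *Phf2* locus ran past the annotated start by 0, 1237 and 524 bases in control and by 1723, 0 and 1794 bases in KO libraries, so its length differed within both groups. The part of that length in the ratio was not tested. The ratios of *Phf8*, *Kdm7a* and *Arid5b* overlapped between groups.

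Genes that overlap these loci were counted too. *Phf2os1*, an antisense gene on the plus strand at chr13:48871112-48875460, shares 8 bases with *Phf2*. Its counts were 16, 13 and 9 in control and 29, 12 and 24 in *Phf2* KO libraries, with a log2 fold change of 0.68 ± 0.61 (SE; adjusted p = 0.620, edgeR). *4930599N23Rik*, antisense to *Kdm7a*, had counts of 10, 45 and 13 and of 14, 21 and 33 (log2 fold change -0.07, adjusted p = 0.975). *Gm24460*, a small nucleolar RNA gene within *Phf8*, was at 0 in all libraries. The library kit keeps the strand, and the strand setting of the counting was not given in the sources used here, so reads of an antisense pair may not be separated.

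The other genes of the pathway were examined as lists, each read against a median log2 fold change of -0.001 and a median absolute log2 fold change of 0.13 over all 17310 genes. The lists were written with earlier results of these data known, so their shares are descriptions and were not tested. Levels in the lists are means ± SD of 3 control and 3 KO libraries. Of the other JmjC genes, 25 of 28 were tested, 2 rose and 1 fell, 12% against 6.48% of all genes tested, and the median log2 fold change was 0.01. *Kdm5b*, a demethylase of H3 lysine 4, rose from 119.6 ± 2.28 to 141.4 ± 1.34 CPM (log2 fold change 0.24, adjusted p = 0.00289, edgeR). *Kdm6a*, a demethylase of H3 lysine 27, rose from 46.5 ± 2.43 to 55.2 ± 2.17 CPM (0.25, adjusted p = 0.0219, edgeR). *Hif1an*, an asparagine hydroxylase of hypoxia-inducible factor, fell from 79.9 ± 6.44 to 67.6 ± 2.92 CPM (-0.24, adjusted p = 0.0304, edgeR). The calls of *Kdm6a* and *Hif1an* were each lost in 4 of the 6 fits that left out 1 library. For *Kdm6a* these were the fits without control replicate 2 or 3 or without KO replicate 2 or 3 (adjusted p = 0.0627 to 0.111, edgeR). For *Hif1an* they were those without control replicate 1 or 2 or without KO replicate 2 or 3 (adjusted p = 0.0720 to 0.146, edgeR).

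Of the other genes of H3 lysine 9 methylation, writers, readers and erasers outside the JmjC genes, 17 of 17 were tested. By the edgeR quasi-likelihood test 0 passed the threshold, 0% against 6.48% of all genes tested. A list of 17 is too short to tell these shares apart. An unadjusted p under 0.05 was seen in 3 of the 17. Such values were common over all genes. *Kdm7a*, with a raw p of 0.0471 by the edgeR quasi-likelihood test, ranked 3270 by p among the 17310 genes tested. The 3 of 17 are therefore not read as an excess. JmjC erasers of this lysine were counted among the other JmjC genes. Of these, *Jmjd1c* had a log2 fold change of 0.16 (adjusted p = 0.0556, edgeR) and passed in DESeq2 (adjusted p = 0.0322). Of the 17 genes DESeq2 called 1, *Cbx3*, which encodes a heterochromatin protein (adjusted p = 0.0219), and edgeR's exact test 0. *Cbx3* just missed the threshold in the edgeR quasi-likelihood test, at 93.5 ± 6.29 CPM in control and 106.5 ± 3.65 CPM in KO cells (log2 fold change 0.19, adjusted p = 0.0504). Without control replicate 1, *Cbx3* also passed in edgeR (adjusted p = 0.0229). The median log2 fold change of the list was 0.02. The largest log2 fold change in size was that of *Suv39h2*, a methyltransferase of this lysine with a low level, at 3.48 ± 0.0437 and 2.86 ± 0.406 CPM (log2 fold change -0.28, adjusted p = 0.467, edgeR).

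Of the 12 genes of H3 lysine 4 methyltransferase complexes, which place the mark that the PHD finger binds, 12 were tested and 1 rose, 8.33% against 6.48% of all genes tested, with a median log2 fold change of -0.01. *Kmt2c*, a catalytic subunit, was at 87.6 ± 3.94 CPM in control and 103.7 ± 5.39 CPM in KO cells (log2 fold change 0.24, adjusted p = 0.0119, edgeR). It did not pass without control replicate 1 or 2 or without KO replicate 3 (adjusted p = 0.0597 to 0.0666, edgeR). Of the PHF8 partner and H4 lysine 20 methylation genes, 5 of 7 were tested and 0 passed by edgeR's quasi-likelihood test, its exact test or DESeq2. By the quasi-likelihood test this was 0% against 6.48% of all genes tested, and 5 genes are too few to tell these shares apart. An unadjusted p under 0.05 was seen in 0 of them. The sizes of the log2 fold changes of *Kmt5c*, a methyltransferase of H4 lysine 20, and *Hcfc1*, a transcriptional coregulator, were alike, at 0.10 and -0.10. *Kmt5c* was at 22.4 ± 3.59 and 24.1 ± 0.338 CPM (adjusted p = 0.663, edgeR), and its log2 fold change ran from 0.021 to 0.42 over the 14 alternatives.

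Of the other ARID genes, relatives of *Arid5b*, 8 of 9 were tested, 1 rose and none fell, 12.5% against 6.48% of all genes tested, and the median log2 fold change was 0.10. *Arid2*, a subunit of a SWI/SNF remodelling complex, was at 97.6 ± 5.66 CPM in control and 111.1 ± 1.22 CPM in KO cells (log2 fold change 0.19, adjusted p = 0.0341, edgeR). Its call was lost in 5 of the 6 fits that left out 1 library, all but the one without control replicate 3 (adjusted p = 0.0707 to 0.192, edgeR). With the replicate number as a block, *Arid4b* also passed (adjusted p = 0.0439, edgeR).

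Of the genes of protein kinase A subunits and inhibitors, 8 of 9 were tested, 1 fell and none rose, 12.5% against 6.48% of all genes tested, and the median log2 fold change was -0.09. *Pkig*, an inhibitor of the kinase, fell from 130.3 ± 5.27 to 107.4 ± 3.86 CPM (log2 fold change -0.28, adjusted p = 0.00256, edgeR). *Pkia*, another inhibitor, had an adjusted p of 0.126 in edgeR and passed without control replicate 3 (adjusted p = 0.00378).

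Genes of fat cells and cartilage, the tissues in which PHF2 is best known, were at hand in this muscle line only in part. Of the fat cell genes, 7 of 11 were tested, 2 rose and 1 fell, 42.9% against 6.48% of all genes tested. The median log2 fold change was 0.01. This share rests on 7 genes of a list written with earlier results known, and it gives no support for a change in fat cell genes as a group. *Cebpa*, a transcription factor of fat cells and other tissues, rose from 32.9 ± 3.88 to 51.8 ± 3.36 CPM (log2 fold change 0.65, adjusted p = 4.64e-04, edgeR). *Lpl*, lipoprotein lipase, rose from 17.5 ± 1.16 to 22.1 ± 1.65 CPM (0.34, adjusted p = 0.0332, edgeR). Its call was lost in each of the 6 fits that left out 1 library (adjusted p = 0.0682 to 0.127, edgeR). *Cd36*, a fatty acid transporter that muscle also expresses, fell from 5.22 ± 0.740 to 1.92 ± 0.373 CPM (-1.44, adjusted p = 7.73e-04, edgeR). *Adipoq* and *Cidec* had counts of at most 8 and 6 in any library, and *Plin1* and *Lep* were at 0.

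Of the cartilage genes, 6 of 11 were tested, 1 rose and 1 fell, 33.3% against 6.48% of all genes tested. The median log2 fold change was -0.02. This share rests on 6 genes, again of a list written with earlier results known, and it gives no support for a change in cartilage genes as a group. *Col11a1*, a collagen chain, fell from 45.3 ± 1.94 to 28.4 ± 1.86 CPM (log2 fold change -0.67, adjusted p = 6.42e-05, edgeR). *Runx2*, a transcription factor of bone and hypertrophic cartilage, rose from 54.3 ± 3.70 to 67.3 ± 3.09 CPM (0.31, adjusted p = 0.00697, edgeR). It did not pass without control replicate 2 or without KO replicate 2 (adjusted p = 0.0597 and 0.0511, edgeR). *Col2a1* and *Acan* had counts of at most 12 and 6 in any library. The summed level of the skeletal muscle markers also differed between the groups, as given above, and its part in these differences was not tested.

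**Figure D5:**
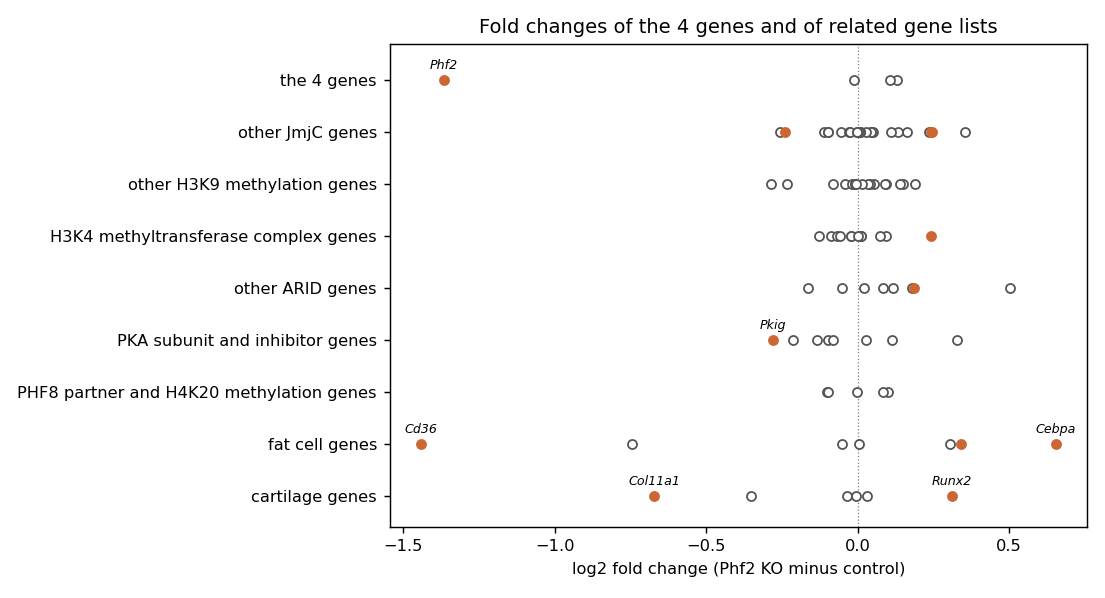
Log2 fold change, *Phf2* KO minus control, of the 4 genes (top row) and of each tested gene of the 8 lists (other rows), with filled points for genes past an adjusted p of 0.05 and open points for the others. Most points lie near 0, with *Cd36* at -1.44 and *Col11a1* at -0.67 among the lower ones and *Cebpa* at 0.65 among the higher ones.

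The genes whose levels over the 6 libraries were most like those of *Phf2* were sought among genes that averaged 10 CPM or more and were above 0 in every library. The measure was the root mean square difference of log2 level relative to the control mean. Besides *Phf2* there were 9613 such genes, of which *Phf8*, *Kdm7a* and *Arid5b* were left out of the ranking. *Mef2c*, a transcription factor of muscle, was nearest with a difference of 0.237, followed by *Ablim3*, an actin-binding protein gene, with 0.259, *Mafa*, a transcription factor gene, with 0.278, *Actn2*, a Z-disc alpha-actinin gene, with 0.280 and *Myh4*, a fast myosin heavy chain gene, with 0.283. *Mef2c* stood at 35.0, 43.1 and 32.4 CPM in control and at 11.9, 11.6 and 15.0 CPM in KO libraries. *Ablim3* went from 37.2 ± 2.24 to 18.2 ± 0.974 CPM. The measure rests on the difference between the groups for the most part, and it is a description over 6 libraries, with no test.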

How the data were processed

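The authors aligned 150 bp reads to mm10 with HISAT2 and quantified genes with StringTie. The deposited matrix holds estimated counts, whole numbers that follow coverage times length divided by 75 and that are not scaled by library size. The deposited tables of single libraries hold a TPM signal scaled within each library, whose rows of reference genes were used and sum to 976993 to 984559, and the authors' mean read depth per base. The annotation the authors used is not given in the sources used here.

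The test was that of edgeR 4.0.16 in R 4.3.3: filterByExpr (minimum count 10), TMM scaling, a robust quasi-likelihood fit of 3 control and 3 *Phf2* KO libraries, and Benjamini-Hochberg adjustment over 17310 genes with a threshold of 0.05. CPM were scaled by TMM. Alternatives were edgeR's exact test, DESeq2 1.42.0 (with its size factors also in the edgeR fit), no filter, a replicate block, counts divided by 4, limma 3.58.1 on log2(TPM + 1) and log2(TPM + 0.1), and leaving out each library. Scripts were tested on simulated data.

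The members and gene lists were chosen with earlier results of these data known. Named genes were the 4 members, at most 5 genes of each list past the threshold or, with none, the one with the largest log2 fold change, the 5 genes most like *Phf2*, and genes overlapping the members. *Jmjd1c*, *Cbx3*, *Arid4b*, *Pkia* and *Cebpb* were named after their values were seen, because an alternative changed their call, and *Hcfc1* because it was close to *Kmt5c*. Untested list members named by count were likewise added.

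Proteins were translated from GENCODE M21 transcripts and aligned with Biopython 1.88. Deviations from the group means correlated positively between same-numbered libraries (r = 0.250, 0.236 and 0.158 over 10923 genes) and negatively between the others (-0.238 to -0.0131). Deviations within a group sum to 0, so positive values in some pairs go with negative values in others. The replicate block, used only among the alternatives, therefore treated same-numbered libraries as pairs. The reported test used the group only, and its p-values, SE and intervals are unpaired. This pairing comes from the data, not from a labelled batch. Libraries of a group differed by more than sampling noise.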

Additional observations from a re-analysis of the deposited data

Results flagged for a closer look

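An assembled locus on the strand opposite to *Phf2* appeared in *Phf2* KO replicate 3, at chr13:48825419-48854613 within the gene, with a TPM of 0.548 and a mean read depth of 1.25. No such locus was assembled in the 3 control libraries or in KO replicates 1 and 2. It was picked out because it lies outside the reference genes compared above and no control library held one. With 1 of 3 KO libraries, no test was made. *Kdm7a* had an opposite-strand assembled locus in control replicate 3, with a TPM of 0.498. Groups of 3 libraries are too small for the search for single libraries that stand apart.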

How the results depend on the processing

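The calls of *Phf2*, *Phf8*, *Kdm7a* and *Arid5b* were the same under all 14 alternatives. The log2 fold change of *Phf8* turned positive on log2(TPM + 1) and log2(TPM + 0.1), at 0.078 and 0.084, and in 3 fits without 1 library (range over all 6 such fits -0.047 to 0.014). The replicate block changed no call of the 4 genes, and gave 1316 calls over all genes. Among the lists it added *Jmjd1c* to the other JmjC genes (adjusted p = 0.0485, edgeR) and brought the other ARID genes from 1 to 2. limma called 127 and 153 genes with pseudocounts of 1 and 0.1, against 1122, and left 0 and 0 calls among the other JmjC, H3 lysine 4, ARID and protein kinase A genes, and 0 and 1 among the cartilage genes. *Cd36* and *Cebpa* passed in all 14 alternatives. *Cebpb*, a fat cell transcription factor, passed without KO replicate 3 (adjusted p = 0.0160, edgeR). DESeq2 and counts divided by 4 each called 1 gene of the H3 lysine 9 methylation list against 0, and each also called *Jmjd1c* of the other JmjC genes. Without 1 library each, calls ran from 468 to 1039 over all genes, from 1 to 3 for the other JmjC genes, 0 to 1 for the H3 lysine 9, H3 lysine 4 and ARID lists, and 1 to 2 for the protein kinase A and cartilage lists. Fewer libraries enter those fits. Read depth in place of TPM moved the shares of the KDM7 sum to 69.5%, 19.1% and 11.4% in control and to 45.5% for *Phf2* and 19.1% for *Phf8* in KO cells. The log2 difference of the *Phf2* assembled-locus ratio ran from -0.44 to -0.34 without 1 library each, an alternative added after seeing the data. The causes of these changes were not tested.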
